A study of Mus musculus with 10 samples.

Results

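Genes for leukocyte-directed signals of stromal cells were followed through RNA-seq of FACS-sorted mesenchymal cells from lungs of adult mice. They were 7 chemokines (Cxcl1, Cxcl2, Cxcl12, Cxcl14, Ccl2, Ccl7 and Ccl11), the growth factor Csf1, the cytokine Il33 and the receptor chain Il18r1. The 10 genes were taken by symbol, all 10 were among the 14854 genes of the deposited tables, and all 10 passed the filter on low values (a level of 6 or more on the log2 scale in 2 or more libraries). The libraries fell into 5 lineages with 2 libraries each, sorted by the reporters they carried. Axin2:Pdgfra cells had both the Axin2 and the Pdgfra label, Axin2 cells the first alone, Pdgfra cells the second alone, and Negative cells neither. These 4 groups came from mice of the genotype Axin2CreERT2:tdT:PdgfraEGFP, in which the red protein tdT marks cells that expressed Axin2 when the recombinase CreERT2 was active, and their descendants, while EGFP reports Pdgfra. Wnt2 cells came from another line, Wnt2CreERT2:R26REFYP, so mouse line and lineage cannot be told apart for that group. The labels give no sort gates. Pdgfra library 1 has a title of another form and was placed by its lineage label, GFP, which Pdgfra library 2 also carries. The labels are also silent on whether 2 libraries of a lineage stem from different mice, and the p-values therefore reflect no more than the spread between these libraries, which may be technical.

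Chemokines are small secreted proteins that steer leukocytes along gradients. Fibroblasts of the lung are known sources of them, alongside macrophages, endothelium and epithelium. In mice, Cxcl1 and Cxcl2 recruit neutrophils through the receptor Cxcr2, Ccl2 and Ccl7 recruit monocytes through Ccr2, and Ccl11 (eotaxin) recruits eosinophils through Ccr3. Cxcl12 acts through Cxcr4 and is scavenged by Ackr3. Csf1 keeps macrophages alive through its receptor Csf1r. Il33 is stored in the nucleus and released on damage, and Il18r1 is the ligand-binding chain of the receptor for interleukin 18. Transcription of several of these genes is induced through NF-kB, which binds kappa-B sites.

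The promoters of Cxcl1, Cxcl2 and Csf1 are shown because each held a match to the kappa-B form that was searched, GGG, any 2 bases and TTTCC, on either strand. The sequences come from RefSeq (GRCm38.p6) and give the 250 bases before the annotated start, on the strand of the gene. They lie at chr5:90890995-90891244 on the plus strand for Cxcl1, chr5:90903649-90903898 on the plus strand for Cxcl2 and chr3:107760470-107760719 on the minus strand for Csf1. Capitals mark the matches.
Cxcl1: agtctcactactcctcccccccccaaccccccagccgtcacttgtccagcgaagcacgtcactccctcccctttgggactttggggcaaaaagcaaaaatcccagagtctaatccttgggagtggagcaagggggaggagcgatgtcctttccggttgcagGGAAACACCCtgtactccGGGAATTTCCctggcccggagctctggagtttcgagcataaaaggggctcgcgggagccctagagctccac
Cxcl2: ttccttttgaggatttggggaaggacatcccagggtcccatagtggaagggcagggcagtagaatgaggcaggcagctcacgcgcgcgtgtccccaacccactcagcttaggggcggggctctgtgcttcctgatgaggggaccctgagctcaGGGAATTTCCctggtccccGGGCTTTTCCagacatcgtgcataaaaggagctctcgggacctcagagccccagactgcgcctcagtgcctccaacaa
Csf1: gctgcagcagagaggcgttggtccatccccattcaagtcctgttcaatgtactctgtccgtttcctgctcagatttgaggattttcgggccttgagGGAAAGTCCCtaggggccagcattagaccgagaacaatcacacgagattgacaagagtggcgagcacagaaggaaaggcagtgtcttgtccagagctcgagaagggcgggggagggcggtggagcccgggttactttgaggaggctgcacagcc

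Cxcl1 held GGAAACACCC, a match on the opposite strand 89 to 80 bases before the start, and GGGAATTTCC 71 to 62 bases before it. Cxcl2 held the same GGGAATTTCC 97 to 88 bases before its start and GGGCTTTTCC 78 to 69 bases before it. The longest stretch shared by both promoters around these sites was GGGAATTTCCCTGG, 14 bases long. Csf1 held GGAAAGTCCC on the opposite strand, 154 to 145 bases before its start. RefSeq promoters were matched for 7 of the 10 genes. None was matched for Ccl2, Ccl7 and Ccl11, so neither form was searched for in them. Of the 7 matched genes, 3 held the kappa-B form, against 464 of 32851 promoters of the same length (1.41%). The genes were counted by symbol and the background by promoter, so these shares are not in the same unit. The AP-1 form TGANTCA was in none of the 7 and in 6.75% of all promoters. A match describes letters in a window and is no evidence of binding. Cxcl1 and Cxcl2 are neighbours on chromosome 5 and Ccl2, Ccl7 and Ccl11 on chromosome 11, with 0 other protein-coding genes between them, and values of these close relatives are uncertain where counting could split reads between them.

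**Figure D1:**
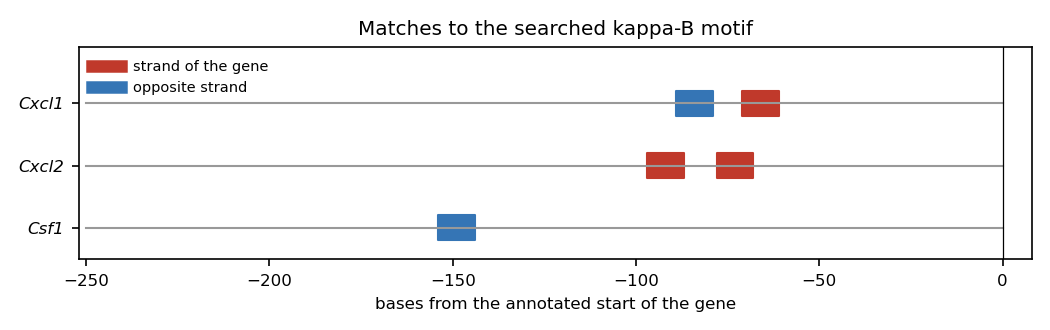
Positions of matches to the searched kappa-B form in the 250 bases before the annotated start (x axis, bases from the start) of Cxcl1, Cxcl2 and Csf1 (rows); red boxes are on the strand of the gene and blue boxes on the opposite strand. Cxcl1 and Cxcl2 held 2 matches each within 97 bases of the start, and Csf1 held 1, farther away.

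The values are log2 levels from normalized tables with no counts, so depth is unknown and only differences within a gene across libraries are compared. The lowest value of a library was shared by 2.09% of its genes in Pdgfra library 2 and by up to 18.4% in Negative library 2. As a check of the labels, the Pdgfra transcript was at 14.64 to 15.21 in the libraries with the Pdgfra label and at 12 to 13.49 in those of the same line without it. It was at 16.05 and 16.25 in Wnt2 cells. The Axin2 and Wnt2 transcripts did not separate the cells named after them: Axin2 was at 9.54 to 12.04 with the Axin2 label against 10.07 to 11.06 without it in the same line, and Wnt2 was at 9.67 and 10.04 in Wnt2 cells against 7.68 to 10.82 in the other 4 groups. Mesenchyme markers (12 of 12 in the tables) were high in every group. Erythroid markers (5 of 8) summed to 16.02 to 16.5 in Negative cells and to at most 11.31 elsewhere, and mesothelial markers (8 of 9) to 8.76 to 10.18 in Wnt2 cells and to 12.66 to 13.9 elsewhere. Xist was at 16.68 to 17.72 in 8 libraries, at 7.81 in Wnt2 library 2 and at 8.57 in Negative library 2, and Y-linked transcripts were present in those 2 and, lower, in Wnt2 library 1. The libraries of the Negative group, and those of the Wnt2 group, thus differed in sex-linked transcripts, and their spread is not that of repeats of 1 RNA sample.

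The 10 genes were chosen with earlier results of these data known, so their counts beside the shares of all genes are descriptions only. Among the 10 genes, 5 differed among the 5 lineages by limma's F-test with Benjamini-Hochberg (BH) adjustment over 14177 genes, against 8.2% of all genes. They were Il18r1 (adjusted p = 0.000119), Cxcl1 (0.00347), Ccl11 (0.01), Csf1 (0.0319) and Il33 (0.0401). The other 5, Cxcl2, Cxcl12, Cxcl14, Ccl2 and Ccl7, had adjusted p-values of 0.113 to 0.824. The F-test calls of the first 3 held whichever library was left out, whereas that of Csf1 ended in 7 of 10 such fits (adjusted p of 0.0599 to 0.103) and that of Il33 in 9 of 10 (0.0606 to 0.103). Csf1 kept its call only without either Axin2:Pdgfra library or Negative library 0, and Il33 only without Negative library 0.

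**Figure D2:**
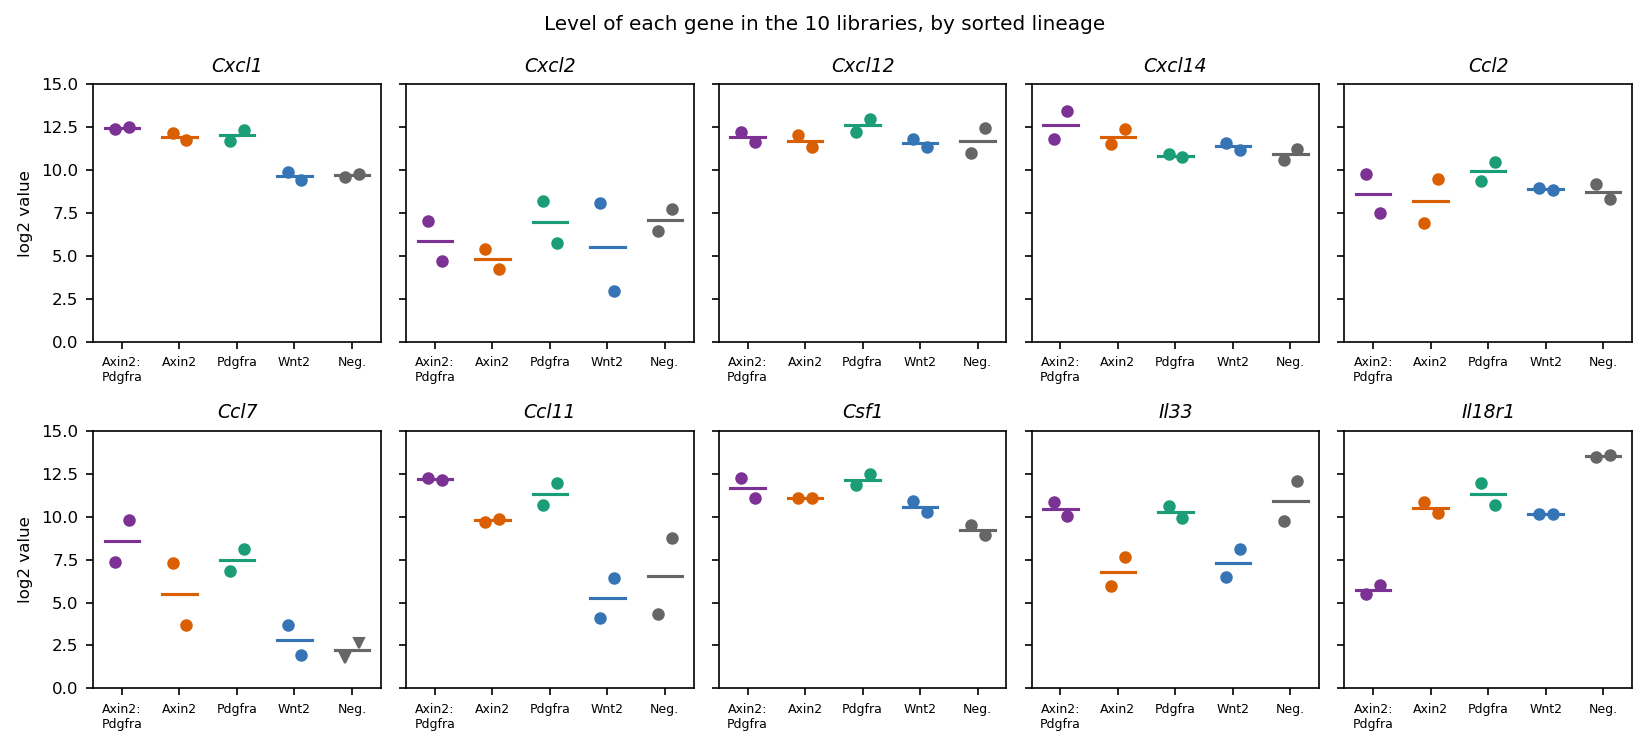
Level of each of the 10 genes (y axis, log2 value) in the 5 lineages (x axis), with a point for each library and a bar at the mean of 2; triangles mark libraries in which the gene is listed at the lowest value. Cxcl1 and Ccl11 are high in the 3 labelled lineages of the Axin2 and Pdgfra line, Il18r1 is at 5.5 and 6.01 in Axin2:Pdgfra cells and above 10 elsewhere, and Cxcl12 spans less than the other genes.

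Cxcl1, a neutrophil attractant, was high in every labelled lineage of the Axin2 and Pdgfra line. Its log2 level was 12.38 and 12.55 in Axin2:Pdgfra cells, 12.18 and 11.74 in Axin2 cells, 11.72 and 12.36 in Pdgfra cells, 9.89 and 9.45 in Wnt2 cells and 9.6 and 9.8 in Negative cells. The 6 libraries with either label all lay above the 4 others, and the Axin2:Pdgfra libraries were the highest by a narrow margin. Means were 12.47 ± 0.12 in Axin2:Pdgfra cells, 11.96 ± 0.31 in Axin2 cells, 12.04 ± 0.45 in Pdgfra cells, 9.67 ± 0.31 in Wnt2 cells and 9.7 ± 0.14 in Negative cells (SD, n = 2 each). Against Negative cells, Cxcl1 was higher by 2.77 ± 0.5 log2 units in Axin2:Pdgfra cells (SE, limma, BH-adjusted p = 0.00416) and by 2.34 ± 0.5 in Pdgfra cells (adjusted p = 0.0228). In Axin2 cells the difference from Negative cells was 2.26 (adjusted p = 0.0627). The first of these calls held under all alternatives; the second ended without Pdgfra library 1 (adjusted p = 0.0865) or 2 (0.174). In these bulk samples, fewer cells of a type and less RNA per cell cannot be told apart.

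Cxcl2, its neighbour with the same receptor, showed no such pattern. Its level was 7.03 and 4.74 in Axin2:Pdgfra cells, 5.4 and 4.26 in Axin2 cells, 8.23 and 5.77 in Pdgfra cells, 8.09 and 2.95 in Wnt2 cells and 6.47 and 7.77 in Negative cells. The gap of 5.14 between the Wnt2 libraries exceeded the range of 2.29 among the group means, and Cxcl2 did not pass the F-test (adjusted p = 0.824). Across the 10 libraries, Pearson's r between Cxcl1 and the other members was 0.91 with Ccl7, 0.89 with Ccl11 and 0.79 with Csf1, all given as descriptions over 10 libraries that share their groups.

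Ccl11, an eosinophil attractant, had a similar order with wider steps. Its level was 12.26 and 12.14 in Axin2:Pdgfra cells, 9.72 and 9.87 in Axin2 cells, 10.71 and 11.97 in Pdgfra cells, 4.07 and 6.43 in Wnt2 cells and 4.32 and 8.76 in Negative cells. The 4 libraries with the Pdgfra label lay above the 4 of the same line without it, and the Wnt2 libraries lay below all 6 libraries with either label. The Negative libraries differed by 4.44, more than any other pair of libraries of a lineage for this gene. Ccl11 was higher in Axin2:Pdgfra cells than in Negative cells by 5.66 ± 1.29 log2 units (SE, limma, BH-adjusted p = 0.0164). Without Negative library 0 that difference was 3.44 (adjusted p = 0.063), and it also missed the threshold without Axin2:Pdgfra library 1 (adjusted p = 0.0859) or 2 (0.0876). For Ccl11 in Pdgfra cells against Negative cells the difference was 4.8 (adjusted p = 0.0639). It passed the threshold with values below 6 raised to 6 (3.96, adjusted p = 0.0399).

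Ccl7 and Ccl2, both monocyte attractants, passed no test either. Ccl7 was at 7.37 and 9.82 in Axin2:Pdgfra cells, 7.29 and 3.7 in Axin2 cells, 6.84 and 8.13 in Pdgfra cells and 3.7 and 1.95 in Wnt2 cells, and both Negative libraries listed it at their lowest value (1.79 and 2.67). The Axin2 libraries differed by 3.6 and reached from the level of Pdgfra cells to that of Wnt2 cells. The Ccl7 difference by Pdgfra label was 4.18 ± 1.33 log2 units (SE, limma, BH-adjusted p = 0.0824), which did not pass the threshold, and it was 1.72, also short of the threshold, with values below 6 raised to 6. Ccl2 was at 9.79 and 7.5 in Axin2:Pdgfra cells, 6.91 and 9.52 in Axin2 cells, 9.38 and 10.49 in Pdgfra cells, 8.97 and 8.83 in Wnt2 cells and 9.19 and 8.31 in Negative cells. The Pdgfra libraries lay above those of Wnt2 and Negative cells, every other pair of lineages overlapped in Ccl2, and its F-test adjusted p was 0.76.

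Cxcl12 and Cxcl14, chemokines with steady expression in many stromal tissues, passed no test. Cxcl12 was at 12.23 and 11.65 in Axin2:Pdgfra cells, 12.04 and 11.37 in Axin2 cells, 12.26 and 12.98 in Pdgfra cells, 11.84 and 11.35 in Wnt2 cells and 11.01 and 12.45 in Negative cells. Its range over all libraries, 1.98, was the narrowest of the 10 genes, and the gap between the Negative libraries, 1.44, exceeded the range of group means, 1.02. Cxcl14, whose receptor is debated, was at 11.85 and 13.44 in Axin2:Pdgfra cells, 11.53 and 12.4 in Axin2 cells, 10.92 and 10.8 in Pdgfra cells, 11.6 and 11.2 in Wnt2 cells and 10.62 and 11.23 in Negative cells. The 4 libraries with the Axin2 label lay above the 4 of the same line without it, as was so in either direction for 6.01% of all genes. The difference was 1.41 ± 0.4 log2 units (SE, limma, BH-adjusted p = 0.0843), and it passed the threshold only without Axin2:Pdgfra library 1 (1.81, adjusted p = 0.0399).

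The receptors of Cxcl12 separated the lineages although Cxcl12 itself did not. Cxcr4, the signalling receptor, was at 7.3 and 7.25 in Axin2:Pdgfra cells, 13.16 and 13.96 in Axin2 cells, 7.68 and 8.78 in Pdgfra cells, 6.96 and 9.65 in Wnt2 cells and 12.37 and 11.72 in Negative cells. Ackr3, the scavenger, was at 11.59 and 11.83 in Axin2:Pdgfra cells, 10.26 and 9.75 in Axin2 cells, 11.86 and 12.68 in Pdgfra cells, 8.72 in both Wnt2 libraries and 9.81 and 9.71 in Negative cells. In the 4 libraries with the Pdgfra label Cxcr4 was lower than in the 4 of the same line without it, with no overlap and a difference of -5.05 ± 0.62 log2 units (SE, limma, BH-adjusted p = 0.000261), and Ackr3 was higher, also with no overlap, by 2.1 ± 0.42 (adjusted p = 0.00738). The Cxcr4 call held under all alternatives, and the Ackr3 call ended without Pdgfra library 2 (adjusted p = 0.0525). Pericyte and smooth muscle markers (14 of 14, none at the lowest value in both libraries of a group) were highest in the Axin2 and Negative groups, as Cxcr4 was: their summed level was 14.51 to 15.34 in Axin2:Pdgfra cells, 18.15 to 18.3 in Axin2 cells, 14.57 to 14.91 in Pdgfra cells, 13.35 to 13.56 in Wnt2 cells and 15.62 to 17 in Negative cells. Their part in the Cxcr4 difference was not tested.

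**Figure D3:**
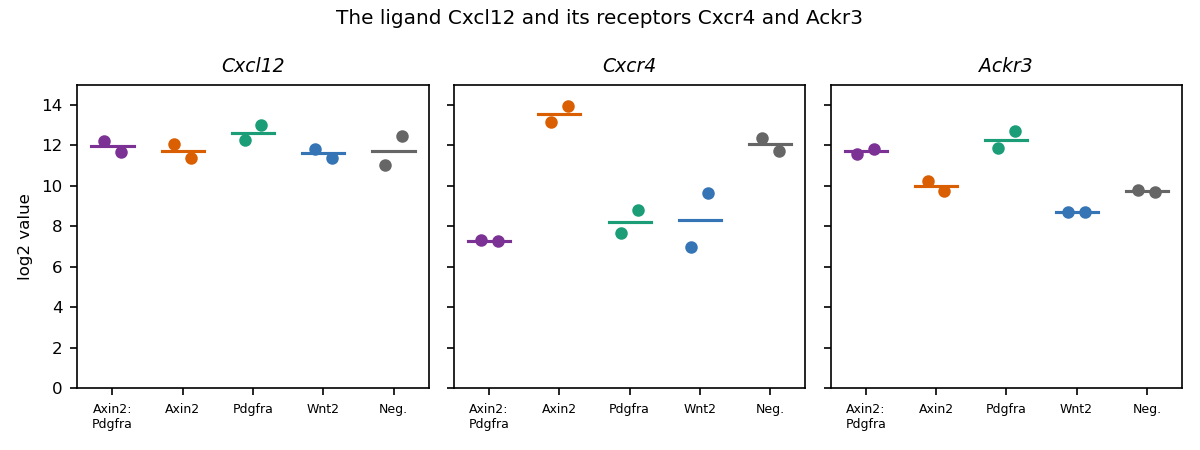
Log2 level (y axis) of Cxcl12 and its receptors Cxcr4 and Ackr3 in the 5 lineages (x axis), with a point for each library and a bar at the mean of 2. Cxcl12 lies between 11.01 and 12.98 in all libraries, whereas Cxcr4 is high in the Axin2 and Negative groups and Ackr3 in the 2 groups with the Pdgfra label.

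Csf1, the macrophage growth factor, was lowest in Negative cells. Its level was 12.26 and 11.08 in Axin2:Pdgfra cells, 11.08 and 11.11 in Axin2 cells, 11.84 and 12.49 in Pdgfra cells, 10.9 and 10.28 in Wnt2 cells and 9.54 and 8.94 in Negative cells. The Negative libraries lay below the 8 others, and the Axin2:Pdgfra and Axin2 groups overlapped. Csf1 was higher than in Negative cells by 2.43 ± 0.58 log2 units in Axin2:Pdgfra cells (SE, limma, BH-adjusted p = 0.0216) and by 2.93 ± 0.58 in Pdgfra cells (adjusted p = 0.0147). The first was lost without Axin2:Pdgfra library 1 (adjusted p = 0.139) or Negative library 2 (0.0881), and the second without Pdgfra library 1 (0.0796) or 2 (0.147) or Negative library 2 (0.055). The summed mesenchyme markers were likewise lowest in Negative cells, at 18.72 to 18.8 in Axin2:Pdgfra cells, 18.04 to 18.32 in Axin2 cells, 18.13 to 18.68 in Pdgfra cells, 18.26 to 18.59 in Wnt2 cells and 17.15 to 17.42 in Negative cells, and their part in the Csf1 difference was not tested. The receptor Csf1r, a macrophage marker, was at 7.65 and 11.26 in Axin2:Pdgfra cells, 10.55 and 8.11 in Axin2 cells, 8.72 and 9 in Pdgfra cells, 9.91 and 9.43 in Wnt2 cells and 13.09 and 11.97 in Negative cells, highest where its ligand was lowest.

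Il33, the alarmin, followed another order, with the Negative group at the top of the means and the Axin2 group at the bottom. Its level was 10.89 and 10.03 in Axin2:Pdgfra cells, 5.95 and 7.66 in Axin2 cells, 10.6 and 9.93 in Pdgfra cells, 6.46 and 8.15 in Wnt2 cells and 9.77 and 12.06 in Negative cells. The Axin2 and Wnt2 libraries overlapped each other and lay below the 6 others. No single comparison of Il33 passed the threshold although its F-test did: by limma with BH adjustment, the difference was 3.65 ± 1.05 log2 units for Axin2:Pdgfra minus Axin2 (SE, adjusted p = 0.094), -4.11 ± 1.05 for Axin2 minus Negative (adjusted p = 0.0906) and -3.61 ± 1.05 for Wnt2 minus Negative (adjusted p = 0.0588). Among the alternatives, Wnt2 minus Negative passed with the second index sequence as a term (-3.61, BH-adjusted p = 0.0412). Wnt2 minus the mean of the other 4 lineages passed with library weights (-2.31, adjusted p = 0.0358). Without Negative library 0, Axin2 minus Negative was -5.25 and Wnt2 minus Negative -4.75, and these values rest on Negative library 2 alone for that group. That library had Xist at 8.57, against 17.47 and 16.68 in the Axin2 libraries, so it also differed from them in sex-linked transcripts. Epithelial markers (18 of 18, none at the lowest value in both libraries of a group), whose cells also express Il33 in mice, had summed levels of 15.53 to 15.61 in Axin2:Pdgfra cells, 15.83 to 16.4 in Axin2 cells, 16.61 to 17.26 in Pdgfra cells, 14.61 to 15.49 in Wnt2 cells and 17.88 to 17.94 in Negative cells. Their part in the Il33 levels was not tested.

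Il18r1, the receptor chain, had the smallest F-test p of the 10 genes and ranked 28 among 14177. Its level was 5.5 and 6.01 in Axin2:Pdgfra cells, 10.87 and 10.21 in Axin2 cells, 11.94 and 10.69 in Pdgfra cells, 10.14 and 10.19 in Wnt2 cells and 13.5 and 13.62 in Negative cells. The Axin2:Pdgfra libraries lay more than 4 log2 units below every other library, and the Negative libraries lay above all others. Means were 5.76 ± 0.36 in Axin2:Pdgfra cells, 10.54 ± 0.47 in Axin2 cells, 11.32 ± 0.88 in Pdgfra cells, 10.17 ± 0.04 in Wnt2 cells and 13.56 ± 0.08 in Negative cells (SD, n = 2 each). Il18r1 was lower in Axin2:Pdgfra cells than in each of the 4 other groups.

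The Il18r1 difference was -4.78 ± 0.66 log2 units for Axin2:Pdgfra minus Axin2 (SE, limma, BH-adjusted p = 0.00198), -5.56 ± 0.66 for Axin2:Pdgfra minus Pdgfra (adjusted p = 0.00495), -4.41 ± 0.66 for Axin2:Pdgfra minus Wnt2 (adjusted p = 0.00621) and -7.81 ± 0.66 for Axin2:Pdgfra minus Negative (adjusted p = 9.22e-05). Wnt2 minus Negative gave -3.39 ± 0.66 (adjusted p = 0.00802). Those against Axin2 and Negative cells held under all alternatives. That against Pdgfra cells ended without Pdgfra library 1 (-4.94, adjusted p = 0.39), that against Wnt2 cells without Wnt2 library 1 (adjusted p = 0.0796) or 2 (0.1), and Wnt2 minus Negative without Wnt2 library 1 (0.0983) or 2 (0.0746). In the order of lineages by level, the step of Il18r1 between Wnt2 and Axin2:Pdgfra cells was the only step between neighbouring lineages, over the 10 genes, that passed the threshold, and it rests on both Wnt2 libraries.

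Endothelial markers moved with Il18r1, and macrophage and leukocyte markers did so in part. Endothelial markers (15 of 15) summed to 14.6 to 14.76 in Axin2:Pdgfra cells, 15.67 to 15.79 in Axin2 cells, 16.48 to 16.51 in Pdgfra cells, 15.07 to 15.34 in Wnt2 cells and 16.1 to 17.34 in Negative cells, with Prox1 at the lowest value in both Axin2:Pdgfra libraries. Macrophage and leukocyte markers (16 of 20) summed to 13.3 to 14 in Axin2:Pdgfra cells, 13.28 to 14.31 in Axin2 cells, 14.63 to 15.02 in Pdgfra cells, 13.47 to 13.99 in Wnt2 cells and 14.76 to 15.75 in Negative cells. In both libraries of a group, Marco, Cd3e, S100a8 and Ccr2 were at the lowest value in Axin2:Pdgfra cells, Cd79a, Cd79b, Ms4a1 and S100a9 in Axin2 cells, S100a9 in Pdgfra cells and Ms4a1 in Negative cells. The leukocyte sums of Axin2:Pdgfra cells overlapped those of Axin2 and of Wnt2 cells. The part of the endothelial and leukocyte markers in the Il18r1 differences was not tested. Il18rap, the second chain of the receptor, was at the lowest value in 5 libraries, both Axin2:Pdgfra and both Negative libraries among them, and reached 9.05 in Pdgfra library 1, so it did not follow Il18r1.

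Comparing the 4 libraries with the Pdgfra label to the 4 of the same line without it, 4 of the 10 genes passed the threshold, against 6.48% of all genes. Of these, 3 were higher (3.55% of all genes) and 1 was lower (2.93%). Cxcl1 was at 11.72 to 12.55 with the label against 9.6 to 12.18 without it, a difference of 1.43 ± 0.35 log2 units (SE, limma, BH-adjusted p = 0.0265). Csf1 was at 11.08 to 12.49 against 8.94 to 11.11, a difference of 1.75 ± 0.41 (adjusted p = 0.0194). Both genes overlapped between the sides, with Axin2 cells at 11.74 to 12.18 for Cxcl1 and at 11.08 to 11.11 for Csf1. Ccl11 was at 10.71 to 12.26 with the label against 4.32 to 9.87 without it, a difference of 3.6 ± 0.91 (adjusted p = 0.0287), and was the only 1 of the 10 without overlap, as were 8.86% of all genes in either direction. Il18r1 was at 5.5 to 11.94 against 10.21 to 13.62, a difference of -3.51 ± 0.47 (adjusted p = 0.000497). Among Axin2-labelled cells alone, Axin2:Pdgfra minus Axin2 gave 0.51 ± 0.5 for Cxcl1 (adjusted p = 0.742), 0.58 ± 0.58 for Csf1 (0.746) and 2.4 ± 1.29 for Ccl11 (0.44), all short of the threshold. Pdgfra minus Negative gave 2.34, 2.93 and 4.8, of which those for Cxcl1 and Csf1 passed. The Cxcl1 and Csf1 estimates by label were thus larger among cells without the Axin2 label. By Pdgfra label, the median difference of the 10 genes was 1.12, against 0 over all genes. The choice of the genes with earlier results known limits this comparison and the counts above to descriptions.

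The Il18r1 call by Pdgfra label held under all alternatives, and the 3 chemokine and growth factor calls did not. With BH adjustment, Cxcl1 missed the threshold without Axin2:Pdgfra library 1 (adjusted p = 0.0515) or 2 (0.07), Axin2 library 1 (0.0618) or 2 (0.111), or Pdgfra library 2 (0.114). Ccl11 did so without Axin2:Pdgfra library 1 or 2 (0.0823 each), Axin2 library 1 (0.0932) or 2 (0.0938), or Pdgfra library 1 (0.0729) or 2 (0.134). Csf1 did so without Axin2:Pdgfra library 1 (0.0706), Axin2 library 1 (0.0643) or 2 (0.0681), or Pdgfra library 2 (0.0953).

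By Axin2 label, 1 of the 10 genes passed the threshold, against 1.64% of all genes, and it was lower (1.14%). Il18r1 was at 5.5 to 10.87 in the 4 libraries with the label against 10.69 to 13.62 in the 4 without it, a difference of -4.29 ± 0.47 log2 units (SE, limma, BH-adjusted p = 0.00172). The ranges overlapped slightly, and the call ended with eBayes without trend and not robust (adjusted p = 0.058). For Cxcl1 the difference was 1.34 ± 0.35 (adjusted p = 0.0692).

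In the pairwise comparisons the counts were small. Axin2:Pdgfra minus Axin2 had 1 called gene of the 10 (2.3% of all genes), and Axin2:Pdgfra minus Pdgfra had 1 (0.0423%, 6 genes in all), Il18r1 in both. Axin2:Pdgfra minus Negative had 4 (6.72%) and Axin2:Pdgfra minus Wnt2 had 3 (0.635%). Pdgfra minus Negative had 2, both higher (2.91% in either direction, 2.03% higher), and Wnt2 minus Negative had 1 (5.81%). By limma, Axin2 minus Negative had 0 (0.6% of all genes), with 5 of the 10 and 2012 of all genes at an unadjusted p under 0.05. Axin2 minus Pdgfra had 0 (2.26%), with 1 of the 10 and 2332 of all genes unadjusted, and Pdgfra minus Wnt2 had 0 (0.367%), with 5 of the 10 and 1085 of all genes unadjusted. Axin2 minus Wnt2 had 1 (4.05%), Cxcl1. Comparisons with Negative cells share those 2 libraries.

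Whether the Pdgfra label went with a different change in the presence of the Axin2 label was asked by the interaction, the Pdgfra-label difference among Axin2-labelled cells minus that among cells without the Axin2 label. No gene of the 14177 passed the threshold by limma (0%), and 4 of the 10 genes were under 0.05 unadjusted, against 1296 of all genes. Their values were -1.84 for Cxcl1 (adjusted p = 0.473), -2.35 for Csf1 (0.437), 4.3 for Il33 (0.429) and -2.54 for Il18r1 (0.46). A difference of the label's effect between the Axin2-labelled and other cells was thus not detected for any of the 10.

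**Figure D4:**
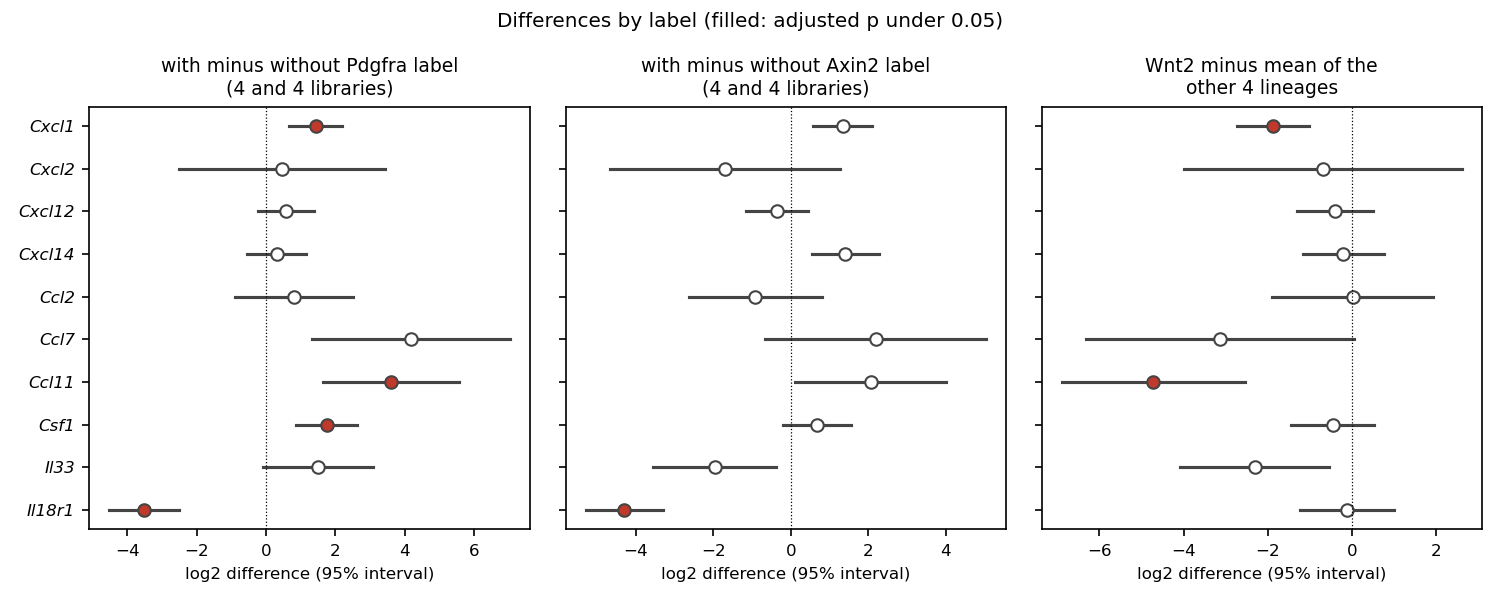
Log2 differences (x axis) of the 10 genes (rows) by Pdgfra label, by Axin2 label and for Wnt2 minus the mean of the other 4 lineages; points are limma estimates, lines 95% intervals, and filled points passed the threshold. By Pdgfra label Cxcl1, Ccl11 and Csf1 lie above 0 and Il18r1 below it, by Axin2 label Il18r1 lies below 0, and in Wnt2 cells Cxcl1 and Ccl11 lie below 0.

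Wnt2 cells had less Cxcl1 and Ccl11 than the mean of the other 4 lineages, although their Pdgfra transcript was the highest. Of the 10 genes, 2 passed the threshold, against 2.16% of all genes, and both were lower (1.44%). Cxcl1 differed by -1.87 ± 0.4 log2 units (SE, limma, BH-adjusted p = 0.0241) and Ccl11 by -4.72 ± 1.02 (adjusted p = 0.0258). The Cxcl1 call ended without Axin2 library 1 (adjusted p = 0.0554), Pdgfra library 2 (0.0609) or Wnt2 library 1 (0.202) or 2 (0.385). The Ccl11 call held only without 1 of the Negative libraries, and ended in the 8 other fits, with adjusted p-values from 0.0535 without Axin2:Pdgfra library 2 to 0.504 without Wnt2 library 1. Negative cells had about the same Cxcl1 level as Wnt2 cells, so the mean of the other 4 does not stand for each of them.

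Of the direct comparisons with Wnt2 cells, 1 called both chemokines. Axin2:Pdgfra minus Wnt2 gave 2.8 ± 0.5 log2 units for Cxcl1 (SE, limma, BH-adjusted p = 0.023) and 6.95 ± 1.29 for Ccl11 (adjusted p = 0.0262), and Axin2 minus Wnt2 gave 2.29 ± 0.5 for Cxcl1 (adjusted p = 0.019). Of these 3 calls, the first ended without Axin2:Pdgfra library 1 (adjusted p = 0.0635) or 2 (0.124), Pdgfra library 2 (0.0516) or Wnt2 library 1 (0.112) or 2 (0.25). The second ended in 8 of 10 such fits (adjusted p of 0.0514 to 0.176). The third ended without Axin2 library 1 (0.141) or 2 (0.102) or Wnt2 library 1 (0.104) or 2 (0.184). In Axin2 minus Wnt2 the Ccl11 difference was 4.55 ± 1.29 (adjusted p = 0.0647). Pdgfra minus Wnt2 gave 2.37 ± 0.5 for Cxcl1 and 6.09 ± 1.29 for Ccl11 (adjusted p = 0.0694 each). All were short of the threshold in this fit and passed it with library weights. The adjusted p was then 0.00871 for Ccl11 in Axin2 minus Wnt2. In Pdgfra minus Wnt2 it was 0.0101 for Cxcl1 and 0.00809 for Ccl11.

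Adventitial fibroblast markers (10 of 10, none at the lowest value in both libraries of a group) moved with Cxcl1 and Ccl11. Their summed level was 17.89 to 18.05 in Axin2:Pdgfra cells, 16.65 to 16.94 in Axin2 cells, 17.06 to 17.36 in Pdgfra cells, 15.88 to 16.01 in Wnt2 cells and 15.68 to 16.12 in Negative cells. Alveolar fibroblast markers (10 of 10) had another order, at 17.91 to 17.98 in Axin2:Pdgfra cells, 17.05 to 17.27 in Axin2 cells, 17.62 to 17.88 in Pdgfra cells, 18.32 to 18.52 in Wnt2 cells and 16.79 to 17.03 in Negative cells. The part of either in the chemokine differences was not tested.

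**Figure D5:**
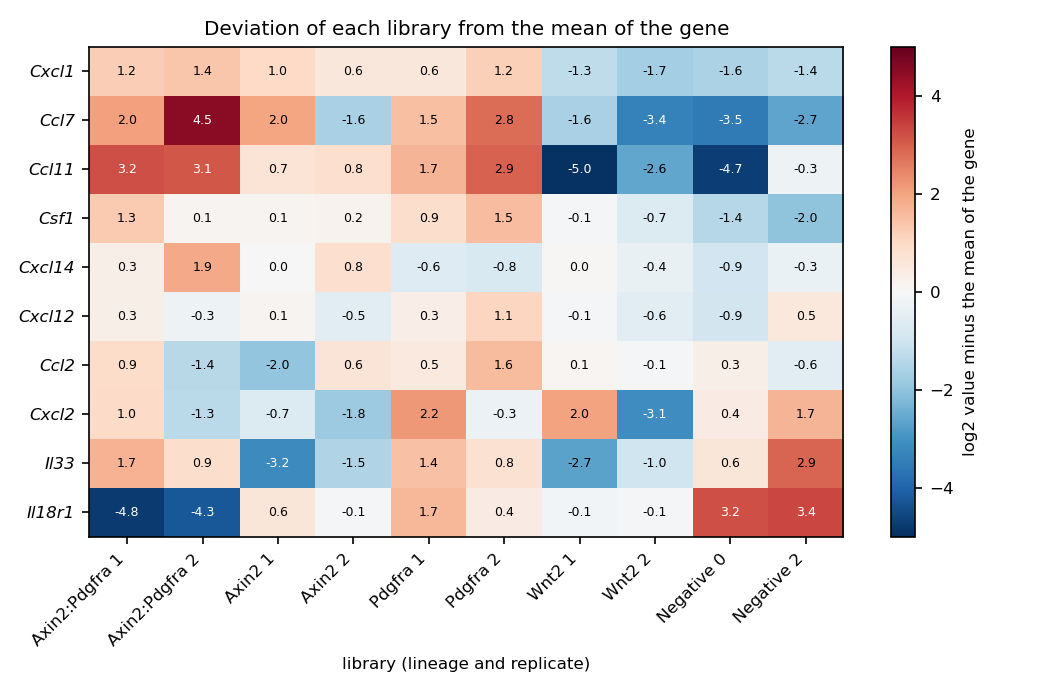
Deviation of each of the 10 libraries (columns) from the mean of a gene over all libraries, in log2 units (colour and number), for the 10 genes (rows). Cxcl1, Ccl7, Ccl11 and Csf1 are mostly above their means in the 6 libraries with either label and below them in Wnt2 and Negative cells, while Il18r1 is far below its mean in the Axin2:Pdgfra libraries.

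Over the 45 pairs of the 10 genes, the median r across libraries was 0.14. Of these pairs, 5 were above 0.7, all among Cxcl1, Ccl7, Ccl11 and Csf1, and 1 was below -0.7, Cxcl14 with Il18r1 (-0.73). The genes most like each of the 5 that passed the F-test were found among the other 14176. Cxcl1 was closest to Gli1 (r = 0.994), a transcriptional effector of Hedgehog signalling, then to Col14a1 (0.976), an adventitial marker, and Igdcc4 (0.964). Gli1 averaged 10.45 in Axin2:Pdgfra cells, 8.15 in Axin2 cells, 9.24 in Pdgfra cells, 2.59 in Wnt2 cells and 2.23 in Negative cells. Both Negative libraries listed Gli1 and Igdcc4 at their lowest value (1.79 and 2.67), so these r values rest in part on the floor. Ccl11 was closest to Serpinf1 (0.939), Iglon5 (0.932) and Smoc2 (0.932), and Csf1 to Alg2 (0.943), Dact3 (0.936) and the collagen gene Col6a3 (0.936).

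Il33 was closest to Pclaf (0.918), Flot1 (0.915) and Gpat2 (0.898). Both Axin2 libraries listed Pclaf at their lowest value (1.55 and 1.75). Il18r1 was closest to Cd74 (0.966), the invariant chain of antigen presentation, Arhgap27 (0.965) and Akap5 (0.965). Cd74 averaged 11.54 in Axin2:Pdgfra cells, 12.52 in Axin2 cells, 12.99 in Pdgfra cells, 12.44 in Wnt2 cells and 13.74 in Negative cells, the order of Il18r1. These correlations are descriptions over 10 libraries in 5 groups, and the smallest r with any 1 library left out was 0.865, for Il33 with Gpat2.

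Other genes of these pathways, in lists also chosen with earlier results known, were counted by limma's F-test, which 8.2% of all genes passed. The counts were 1 of 17 other chemokine ligands, 3 of 9 chemokine receptors, 0 of 12 other growth factors of blood cells and their receptors, 1 of 16 in the IL-1 family, 6 of 25 in the NF-kB pathway and 12 of 23 immediate early genes. Of the 12 growth factors and receptors, 5 had an unadjusted p under 0.05 by limma's F-test. The chemokine ligand was Cxcl15, an epithelial chemokine of the mouse lung. It averaged 11.4 in Axin2:Pdgfra cells, 11.67 in Axin2 cells, 13.49 in Pdgfra cells, 11.33 in Wnt2 cells and 12.88 in Negative cells. The epithelial markers given above were highest in Negative and next in Pdgfra cells, and their part in the Cxcl15 levels was not tested. The receptors were Cxcr4, Ackr3 and Ccrl2, a non-signalling receptor that was lower with the Pdgfra label (a difference of -1.56 ± 0.37 log2 units, SE, limma, BH-adjusted p = 0.0218). The Ccrl2 call ended with eBayes without trend and not robust (adjusted p = 0.094), with library weights (0.054) and without Axin2:Pdgfra library 1 (0.0551), Axin2 library 1 (0.083) or 2 (0.0856), or Pdgfra library 1 (0.0564) or 2 (0.0788). The IL-1 family gene was Irak3, an inhibitor of the pathway, which averaged 9.1 in Axin2:Pdgfra cells, 6.53 in Axin2 cells, 9.14 in Pdgfra cells, 8.64 in Wnt2 cells and 3.39 in Negative cells, with Negative library 2 at its lowest value.

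Genes of the NF-kB pathway and its usual targets moved in both directions with the Pdgfra label, with 3 higher and 2 lower of 25, against 3.55% and 2.93% of all genes (median difference 0.43, against 0 over all genes). The count was 1 without Axin2 library 1 or Pdgfra library 2. Nfkbiz, a nuclear regulator of NF-kB target genes, was at 13.54 and 13.72 in Axin2:Pdgfra cells, 11.6 and 11.03 in Axin2 cells, 14.16 and 14.17 in Pdgfra cells, 14.18 and 13.64 in Wnt2 cells and 10.81 and 11.2 in Negative cells. It was higher with the label by 2.74 ± 0.25 log2 units (SE, limma, BH-adjusted p = 4.33e-05), under all alternatives, and it was similarly high in Wnt2 cells. Icam1, an adhesion molecule for leukocytes, averaged 14.38 ± 0.27 in Negative cells (SD, n = 2), above every other group. Tlr4 averaged 9.65 in Axin2:Pdgfra cells, 10.55 in Axin2 cells, 10 in Pdgfra cells, 8.4 in Wnt2 cells and 3.49 in Negative cells. Negative library 2 listed Tlr4 at its lowest value. Ptgs2 averaged 10.98 in Axin2:Pdgfra cells, 8.1 in Axin2 cells, 11.31 in Pdgfra cells, 8.9 in Wnt2 cells and 11.04 in Negative cells. The part of this pathway in the chemokine differences was not tested.

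Immediate early genes, which respond to tissue dissociation as well as to growth factors, were higher with the Pdgfra label for 13 of 23 and lower for 0, against 3.55% and 2.93% of all genes (median difference 1.19, against 0 over all genes); with eBayes without trend and not robust 2 passed. Examples were Nr4a1 (1.82 ± 0.2 log2 units, SE, limma, BH-adjusted p = 0.000101), Nr4a3 (3 ± 0.33, adjusted p = 9.34e-05), Egr1 (1.25 ± 0.14, adjusted p = 9.34e-05) and Zfp36 (1.5 ± 0.17, adjusted p = 0.000131), of which the last degrades chemokine messages. By Axin2 label 0 of the 23 passed by limma, against 1.64% of all genes, and 4 had an unadjusted p under 0.05. Cxcl1, Ccl11 and Csf1 were higher in the same contrast, and the part of this response in their differences was not tested.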

How the data were processed

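Per the labels' protocols, RNA from sorted cells was extracted with Trizol and libraries followed standard Illumina methods. STAR, limma and the build mm9 are named in the submitters' processing notes; for versions, annotation and counter the entry is "not given in the sources used here". Each deposited table gives log2 values by gene for 1 library, a scale inferred from the numbers, with near-identical distributions across libraries. There are no counts, so depth is unknown and counting error has no interval.

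The filter kept 14177 of 14854 genes, those reaching 6 on the log2 scale in 2 or more libraries. A linear model with a mean per lineage over all 10 libraries (5 residual degrees of freedom) was fitted with limma 3.58.1 in R 4.3.3 (lmFit; eBayes, trend and robust). Tests were two-sided, with Benjamini-Hochberg adjustment over all genes and a threshold of 0.05. The procedure was tried on simulated data with independent normal noise and added shifts by Pdgfra label. Those data lacked the shared lowest values of these libraries, so the trial does not show how calls behave in them. Summed marker levels are log2 of sums of linear values. No fold is given against a group listed at the lowest value in both libraries.

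The 10 genes and the lists were chosen with earlier results of these data known. Named beyond them are, per list, up to 4 genes passing the F-test by smallest p, and for each of the 10 that passed, the 3 genes with the highest Pearson r. Cxcr4, Ackr3 and the other listed genes follow that rule, while Csf1r, Il18rap and Xist were named for their relation to the 10 or to the libraries. Alternatives were the filter on low values, a common floor of 6, another variance model, library weights, a replicate block, each library left out, and, chosen after seeing the data, the second index sequence as a term.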

Additional observations from a re-analysis of the deposited data

How the results depend on the processing

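Over 102 differences and F-tests of named genes and 17 alternatives, 1436 of 1734 values kept their direction and side of the threshold. Of the rest, 272 lost the call, 26 gained one and 0 changed sign, and the cause was not tested. These totals mix called and uncalled results, and F-tests have no sign. Differences entered only with an unadjusted p under 0.05 or, for the listed genes, a call. A change of sign was therefore unlikely from the start, and the totals do not measure robustness. Of the 10 genes, the count passing the F-test was 5, with 3 to 5 when a library was left out; by Pdgfra label 4 (1 to 4), by Axin2 label 1 (1 to 2), for Axin2:Pdgfra minus Axin2 1 (1 to 1), for Axin2:Pdgfra minus Pdgfra 1 (0 to 1), for Axin2 minus Negative 0 (0 to 2), for Pdgfra minus Negative 2 (0 to 2), for Wnt2 minus the other 4 2 (0 to 2), for the interaction 0 (0 to 0) and for neighbouring lineages 1 (0 to 2). With eBayes without trend and not robust the counts were 1 by F-test, 1 by Pdgfra label, 0 by Axin2 label, 0 for Axin2:Pdgfra minus Pdgfra, 0 for Pdgfra minus Negative and 0 for Wnt2 minus the other 4, while 205 genes in all passed the F-test against 1163, and 364 against 918 by Pdgfra label. Under that variance model, of the called differences of Cxcl1, Ccl11 and Csf1 only Cxcl1 in Axin2:Pdgfra minus Negative stayed past the threshold, and Il18r1 lost its calls by Axin2 label and for Axin2:Pdgfra minus Pdgfra alone. Library weights ended the calls of Cxcl1 in Pdgfra minus Negative (adjusted p = 0.0636) and of Ccl11 (0.0562) and Csf1 (0.0758) in Axin2:Pdgfra minus Negative, and the second index sequence as a term ended those of Cxcl1 in Axin2 minus Wnt2 (0.0512) and of Il33 by F-test (0.0561). The stricter filter gave 1 for Axin2 minus Negative, and library weights gave 1 for Pdgfra minus Negative. The genes called for Axin2:Pdgfra minus Pdgfra numbered 6, against 14 with the stricter filter, 41 with the block and 0 without trend.

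Deviations of same-numbered libraries correlated at -0.06 to 0.03 over 6 pairs of groups, with Negative cells left out, so no shared effect of the replicate number was seen. These correlations cannot tell whether same-numbered libraries came from the same mice. Negative library 0 was the only library with its number, so the replicate block fitted it by itself. Comparisons that include Negative cells then rested on Negative library 2 alone for that group. With the block the difference by Pdgfra label was 1.37 for Cxcl1 and 2.72 for Ccl11, against 1.43 and 3.6 without it. Axin2:Pdgfra minus Negative gave 3.9 for Ccl11 and 2.59 for Csf1, and Pdgfra minus Negative gave 2.24 for Cxcl1. All of these missed the threshold with the block, as did the F-test of Csf1. With 2 libraries a group, 5 residual degrees of freedom and values without counts, differences of Ccl7 and Cxcl2 could not be resolved. For Ccl7 these included a widely spread difference by Pdgfra label, 4.18 ± 1.33 log2 units (SE, limma, BH-adjusted p = 0.0824). Its size depends on the floor, since both Negative libraries listed Ccl7 at their lowest value. With values below 6 raised to 6 it was 1.72.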
